A study of Drosophila melanogaster with 2 samples.

Results

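The genes described here are the dpr, DIP, beat and side genes, 4 families of neuronal cell-surface proteins with immunoglobulin domains. They were taken from the annotation by symbol alone: dpr followed by a number, symbols beginning with DIP- or beat-, and side itself with the symbols beginning with side-. This gave 54 of 13945 protein-coding genes, made up of 21 dpr, 11 DIP, 14 beat and 8 side genes. The symbols, not a value, decide membership, but these families were picked for description with earlier results of the data known.

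Oli, a basic helix-loop-helix (bHLH) transcription factor of the Olig family, was located on chromatin by ChIP-seq, the sequencing of DNA precipitated with a protein. Every library came from the same kind of material: whole embryos, males and females pooled, aged 6 to 18 hours, from a stable transgenic line of Drosophila melanogaster in which GFP is fused to the C terminus of Oli. The precipitating antibody was directed against GFP per the sample description, although the antibody field of the labels names Oli. There is 1 group of 2 biological replicates and no second condition, and the promoter that drives the fusion is not given in the sources used here.

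Dpr proteins bind DIPs (Dpr-interacting proteins) across the gap between cells, and individual Dpr and DIP proteins pair selectively, so that neurons and their partners carry matching sets. Beat proteins, named after beaten path, and Side proteins, named after sidestep, form a parallel receptor and ligand system. Side on embryonic muscle attracts motor axons that carry Beat-Ia. Oli is itself expressed in the embryonic nerve cord, motor neurons among other cells. bHLH factors of its class bind the E-box, a short palindrome-like motif written CANNTG in which N is any base.

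The deposited data are 4 peak lists. Each replicate has a list of 30000 peaks, the pooled replicates have a list of 30000, and the IDR list holds 6496 of the pooled peaks. IDR stands for irreproducible discovery rate, a measure based on how alike peaks rank in both replicates. Here the IDR list equals the 6496 pooled peaks with the highest signal, down to a signal of 154.8. A pooled peak outside it is therefore one of lower signal, not one shown to differ between the replicates. The signal of a peak is the authors' own value. It was used only to order peaks within 1 list, with rank 1 the highest signal, and absolute sizes are not comparable between lists. A summit was tied to a gene if that gene had the nearest protein-coding start, or if the summit lay inside the gene body. Read depth is unknown. In whole embryos, occupancy in few cells and weak occupancy in many cells cannot be told apart.

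The sequences below are the 101 bases centred on IDR summits of 7 peaks, 50 bases either side, from RefSeq's copy of genome release 6 (dm6), 5′ to 3′. The first 4 are the peak with the highest signal in each family and the other 3 hold the most E-boxes or the E-box CAGCTG. Capitals mark E-boxes, which were searched as CANNTG (its own reverse complement, so that both strands are covered, and overlapping matches were allowed).
beat-Ib, chr2L:15911227-15911327, plus strand: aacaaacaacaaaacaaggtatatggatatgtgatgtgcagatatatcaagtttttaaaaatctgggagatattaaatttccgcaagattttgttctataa
DIP-alpha, chrX:3546283-3546383, plus strand: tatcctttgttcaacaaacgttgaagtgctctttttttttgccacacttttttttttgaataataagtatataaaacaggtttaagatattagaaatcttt
side-IV, chr3R:13452941-13453041, plus strand: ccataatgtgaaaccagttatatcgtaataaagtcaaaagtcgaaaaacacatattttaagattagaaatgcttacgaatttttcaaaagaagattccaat
dpr20, chr3L:857763-857863, plus strand: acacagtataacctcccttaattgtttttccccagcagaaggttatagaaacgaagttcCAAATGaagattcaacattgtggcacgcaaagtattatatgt
dpr5, chr3R:11490393-11490493, plus strand: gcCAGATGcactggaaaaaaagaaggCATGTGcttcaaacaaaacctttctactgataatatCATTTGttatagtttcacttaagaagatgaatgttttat
side, chr3R:27421894-27421994, plus strand: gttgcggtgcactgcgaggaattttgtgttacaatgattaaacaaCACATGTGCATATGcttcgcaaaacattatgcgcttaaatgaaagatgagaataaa
DIP-gamma, chr3R:28985957-28986057, plus strand: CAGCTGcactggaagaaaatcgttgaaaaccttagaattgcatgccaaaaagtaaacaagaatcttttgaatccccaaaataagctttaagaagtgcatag

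The windows of beat-Ib, DIP-alpha and side-IV, which rank 159, 515 and 750 of 6496, hold no E-box and have GC contents of 27.7%, 24.8% and 26.7%. The window of dpr20 holds 1 E-box, and those of dpr5 and side hold 3 each. The DIP-gamma window is the only one of the 39 IDR windows at the 4 families with CAGCTG. The last 3 windows were chosen for their E-boxes, so the set shows nothing of how the motif varies with rank, and 28 of the 39 windows hold none.

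At the 4 families, IDR summits were few for the amount of sequence the genes hold and lay away from coding starts. By the nearest-start tie, 13 of 54 genes (24.1%, exact Clopper-Pearson 95% interval 13.5 to 37.6) had an IDR summit, against 25.8% of all coding genes. The interval covers counting error only. That share is near the background, but the genes are long. The median member spans 36.2 kb, against 2.17 kb for all coding genes. The territory of a gene, meaning all positions to which its start is the nearest coding start, had a median of 23.3 kb at the members and 4.33 kb over all coding genes. When every coding gene was sorted by territory into 10 equal classes, 29 of the 54 members fell into the class with the longest territories and 42 into the 2 longest classes. Coding genes of the same classes, weighted as the members are, had an IDR summit in 47.1% of cases. When starts of non-coding genes competed for the summits too, 8 members (14.8%) were reached, against 23.6% of all coding genes.

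In the class with the longest territories, 9 of 29 members (31.0%) had an IDR summit, against 57.2% of all 1394 coding genes of that class. In the class below it the values were 3 of 13 members (23.1%) against 43.7%. Both classes therefore show a lower share of members than of genes with a like territory, a description of this list that carries no test.

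Per length, the 4 families held 1.05 IDR summits for each 100 kb of territory (23 summits in 2197 kb), against 4.80 over all coding genes. DIP-lambda and dpr21 make up a large part of that territory, with 591.0 kb and 198.0 kb, and hold 0 summits in the IDR and pooled lists and in both replicates. Without this pair of genes, left out after their values were seen, the density was 1.63 per 100 kb of the remaining 1408 kb. Without side and side-IV it was 0.661. Over all coding genes, density was lowest where territories were longest, so genes of like territory are the closer comparison. In the class with the longest territories the members held 1.01 per 100 kb, or 1.75 without DIP-lambda and dpr21, against 3.74 for all coding genes of the class. The members' value was the lower one in each of these comparisons.

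By family, an IDR summit was nearest to 3 of 21 dpr genes (14.3%), 4 of 11 DIP genes (36.4%), 3 of 14 beat genes (21.4%) and 3 of 8 side genes (37.5%). Coding genes in the same territory classes gave 44.2%, 45.9%, 50.1% and 51.0% for the 4 sets. The exact intervals of the families overlap throughout, from 3.05 to 36.3% for dpr to 8.52 to 75.5% for side, so no order of the families can be read from these counts. With non-coding starts competing, the shares were 9.52% for dpr, 18.2% for DIP, 7.14% for beat and 37.5% for side. Summit density was 0.476 per 100 kb of territory for dpr, 0.61 for DIP, 1.19 for beat and 3.06 for side. The side value rests on a pair of genes: without side-IV it was 1.77, without side 2.06, and without both 0.406. The DIP value was 2.19 without DIP-lambda, the dpr value 0.695 without dpr21, and the beat value 0.542 without beat-IIIc.

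A comparison list of 22 other genes of the immunoglobulin superfamily with roles in cell adhesion or axon guidance, such as Fas2, Dscam1 and kirre, had an IDR summit nearest in 12 genes (54.5%). Coding genes of the same territory classes gave 48.8%. The density on this list was 5.05 per 100 kb, and 3.47 without kirre, which alone had 14 nearest summits. The highest IDR signals were those of kirre, a myoblast fusion receptor (1240.9, rank 367), and ed, an epithelial adhesion protein (845.9, rank 716), followed by Fas3 (775.1, rank 837) and Ama (768.8, rank 850). The share on this list was near that of genes with a like territory.

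**Figure D1:**
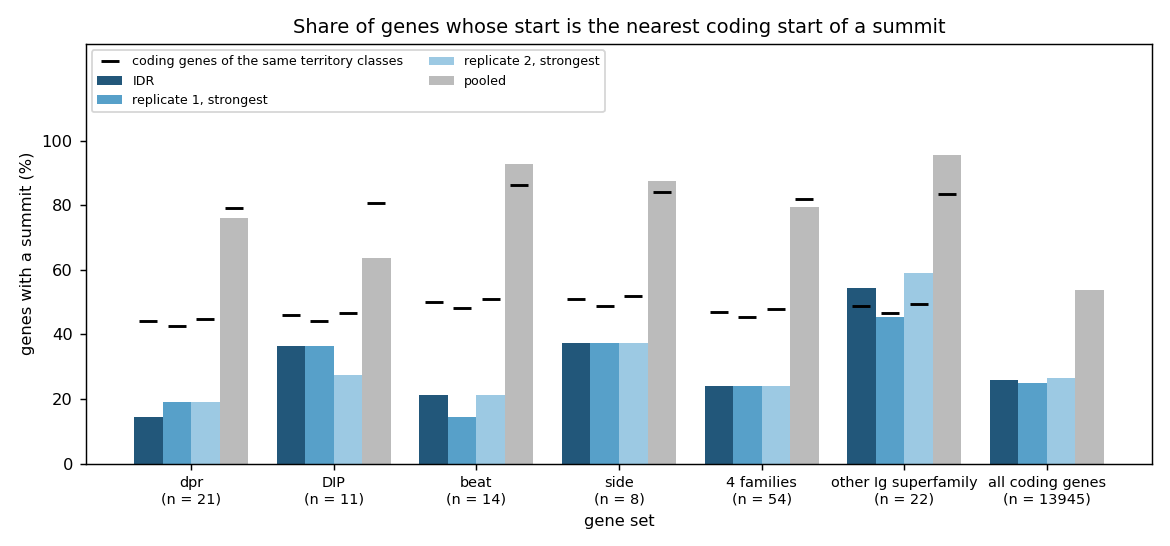
Share of genes (percent, vertical axis) that have the nearest coding start of at least 1 summit, for each family, the 4 families together, the 22 other immunoglobulin genes and all 13945 coding genes. Bars give the IDR list, the 6496 strongest peaks of each replicate and the pooled list, and black dashes give coding genes of the same territory classes. In the IDR list the 4 families sit at 24.1% with the dash at 47.1%, whereas in the pooled list they sit at 79.6% with the dash at 82.1%.

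The gene-body tie gave another 16 summits. An IDR summit lay in the body of 13 of 54 members (24.1%), against 13.7% of all coding genes, a comparison that again does not account for length. By either tie, 18 members (33.3%) had 39 IDR summits, against 27.5% of all coding genes. The families held 5 summits at 5 dpr genes, 7 at 4 DIP genes, 15 at 6 beat genes and 12 at 3 side genes. On the comparison list 15 of 22 genes (68.2%) were reached by either tie. Of the 18 members, 11 had a single summit: dpr1, dpr3, dpr5, dpr6, dpr20, DIP-delta, DIP-eta, beat-IIa, beat-VI, beat-VII and beat-Vc. The other 7 were DIP-alpha, DIP-gamma, beat-IIIc, beat-Ib, side, side-IV and side-V, and 4 of these (side-IV, side, beat-Ib and beat-IIIc) held 20 of the 39 summits.

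**Figure D2:**
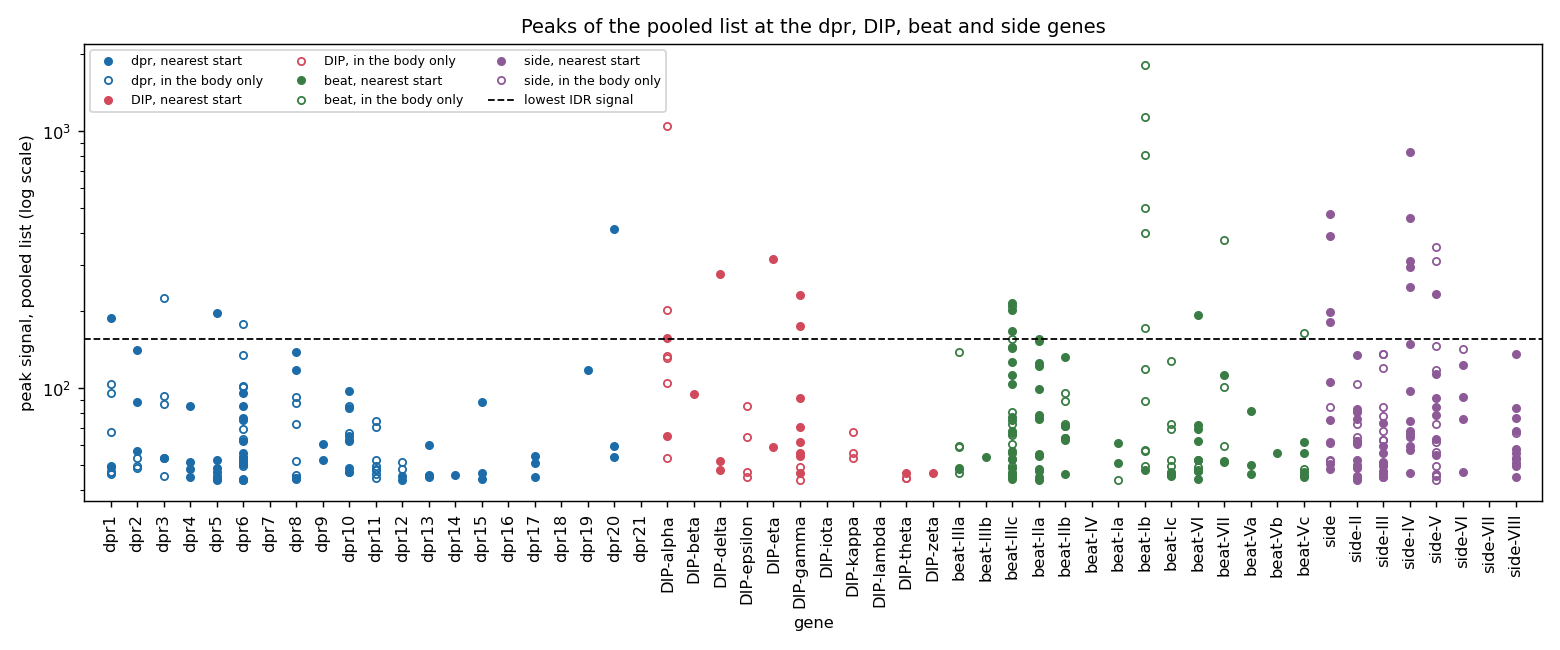
Signal of each pooled peak (vertical axis, log scale) at each of the 54 genes (horizontal axis), coloured by family, with filled points for peaks nearest to a start of the gene and open points for peaks only in its body. The dashed line is the lowest IDR signal, 154.8. The 3 points with the highest signals among all 54 genes are open points at beat-Ib and DIP-alpha, and 8 genes have no point.

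The 6 IDR peaks inside beat-Ib, a relative of the motor axon receptor gene beat-Ia, were all tied to it by its body alone. They lay in intron 2, between 49132 and 53825 bp from the start of the gene, and their nearest coding starts were those of CG13244 and CG31821. The highest, at chr2L:15911072-15911454, had a signal of 1808.5 and rank 159 in the IDR list, with rank 161 (signal 992.0) in replicate 1 and rank 185 (814.8) in replicate 2. It lay 414 bp upstream of the long non-coding RNA gene lncRNA:CR44867, so its tie to beat-Ib is by position in an intron only.

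A second beat-Ib peak, at chr2L:15911992-15912321, ranked 438, with ranks 469 and 414 in the replicates, and lay 389 bp upstream of lncRNA:CR44868. The next, at chr2L:15912888-15913303, ranked 780, with ranks 531 and 1286, in an exon of lncRNA:CR44868. The remaining 3 ranked 1645, 2223 and 5844. The peaks ranked 780 and 2223 overlapped the same replicate peaks, as did those ranked 1645 and 5844, so the 6 peaks correspond to 4 regions in the replicates. No other member had more IDR peaks, yet beat-Ib had 0 by the nearest-start tie.

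The other beat genes carried lower peaks. beat-IIIc had 5, of ranks 4660, 4760, 4941, 6036 and 6472, of which 4 lay in intron 2 and 1 lay 6455 bp upstream of the start. For the first of these the replicate ranks were 4399 and 5021, and for the one at chr2L:17243329-17243744, 7012 and 3872. beat-VII had 1 in intron 7 of 8 with signal 375.9 and rank 2414 (replicate ranks 2721 and 2276), 1666 bp upstream of Tb. beat-VI, beat-Vc and beat-IIa had 1 each, of ranks 5170, 6132 and 6489. The beat-IIa summit lay 5158 bp upstream of its nearest start, in an exon of lncRNA:CR44256. Outside beat-Ib and beat-VII, no beat peak ranked above 4660 of 6496. beat-IIIa, whose only start is also that of CG34106, had none.

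Among the side genes, which code for the surface ligands of Beat receptors, side-IV had 5 IDR peaks and all were nearest to its start. The highest, at chr3R:13452895-13453010 in intron 2, 2401 bp from the start, had a signal of 825.5 and rank 750, with rank 508 (568.1) in replicate 1 and rank 1226 (283.5) in replicate 2. The next, 3522 bp from the start in the same intron, ranked 1859 (replicate ranks 2000 and 1777). The 2 upstream peaks, 1979 and 3919 bp before the start, ranked 3016 and 3232, and a peak past the end of the gene, 18854 bp from the start, ranked 3981. side-IV is 13.6 kb long, below the member median of 36.2 kb but above the 2.17 kb of all coding genes. Its peaks lie both inside the gene and on either side of it.

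side, the founding member and the muscle-borne attractant of motor axons, had 4 IDR peaks, all in introns 1 and 2 of 15. The highest, at chr3R:27407117-27407322, lay 30265 bp from the start with signal 476.1 and rank 1768, and ranks 2072 (232.5) and 1487 (250.2) in the replicates. The second, 10545 bp from the start, had signal 390.1 and rank 2305 (replicate ranks 2424 and 2241). The others, 24122 and 15538 bp from the start, ranked 5027 and 5570. The order of the 4 peaks was the same in both replicates. side-V had 3 peaks, of ranks 2614, 3038 and 4268, in introns 2, 2 and 1 of 13, of which the last, 1770 bp from the start, was the only one nearest to side-V. Its replicate ranks, 5771 and 3025, differed more than those of the other pair (2960 and 2721, 3442 and 2474). side-II, side-III, side-VI, side-VII and side-VIII had no IDR summit by either tie.

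**Figure D3:**
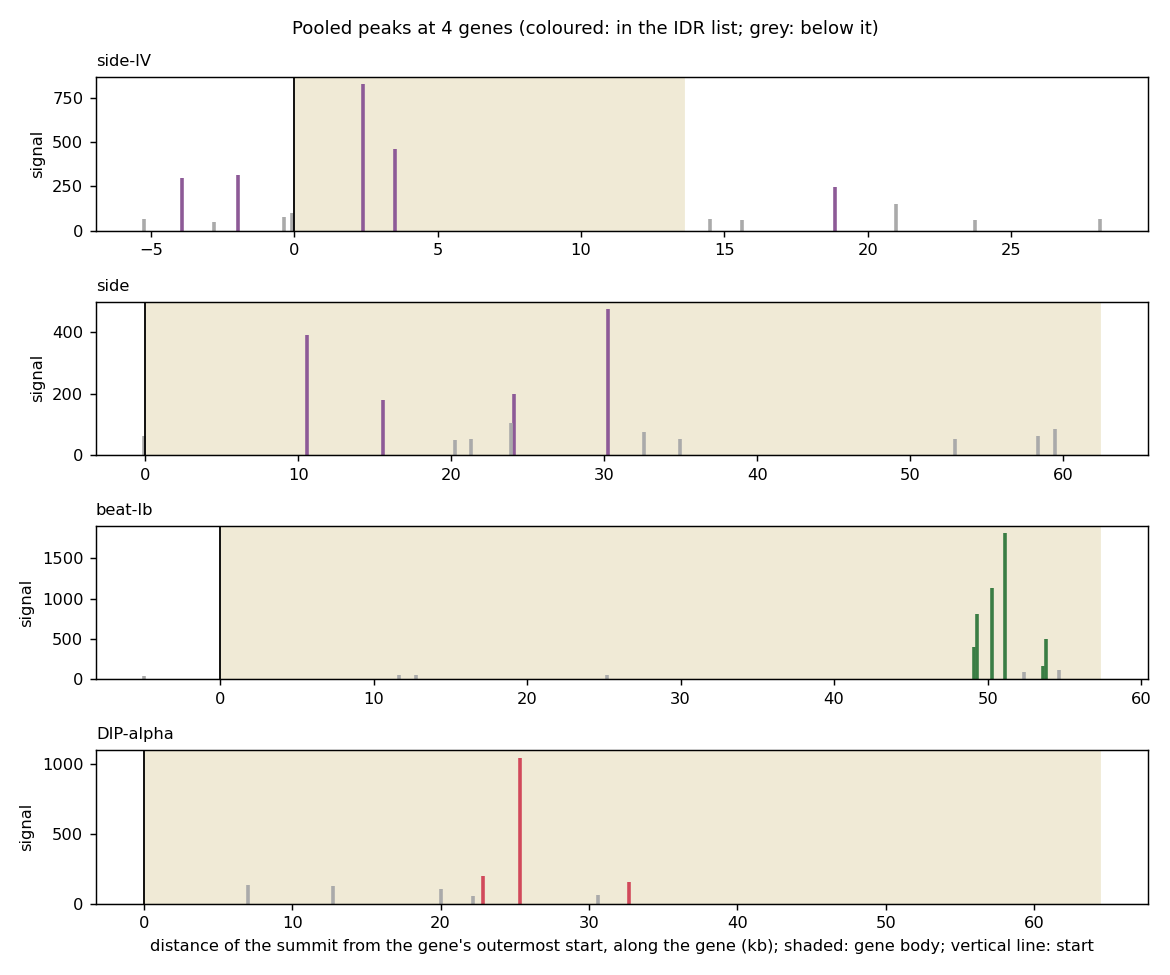
Signal of every pooled peak (vertical axis) at side-IV, side, beat-Ib and DIP-alpha, by distance from the outermost start of the gene in kb (horizontal axis), with the gene body shaded. Coloured bars are peaks in the IDR list and grey bars fall below it. The beat-Ib IDR peaks gather between 49132 and 53825 bp from the start, those of side lie in its first introns, and those of side-IV lie on both sides of the start.

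Of the DIP genes, which code for the binding partners of Dpr proteins, DIP-alpha had the highest peak. DIP-alpha is carried by a subset of motor neurons, and binds Dpr6 and Dpr10. The peak at chrX:3546185-3546481 in intron 2 of 10 had signal 1045.1 and rank 515, with rank 701 (469.5) in replicate 1 and rank 358 (583.7) in replicate 2, and lay 223 bp upstream of lncRNA:CR34335. Its nearest coding start was that of ppk8, a sodium channel family gene. A second DIP-alpha peak ranked 4956 (replicate ranks 4658 and 5319). The third, the only one nearest to a DIP-alpha start, ranked 6437, close to the lower end of the list, with signal 155.9 and replicate ranks of 5064 and 8663. DIP-alpha therefore counts as reached by the nearest-start tie through its lowest peak.

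DIP-eta had 1 peak, in intron 5 of 11 at 7665 bp from the start, with signal 316.5 and rank 2978 (replicate ranks 3634 and 2471). DIP-delta, whose protein binds Dpr12 in mushroom body wiring, had 1 peak of signal 277.3 and rank 3509 (replicate ranks 3429 and 3839), outside the gene and 11099 bp from its nearest start. DIP-gamma, known from colour-vision circuits, had a peak in intron 1 of rank 4295 (3648 and 4940) and a peak 15635 bp upstream of rank 5748 (7146 and 4850). All 7 DIP summits had no coding start within 5 kb. DIP-beta, DIP-epsilon, DIP-iota, DIP-kappa, DIP-lambda, DIP-theta and DIP-zeta had no IDR summit.

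The dpr genes had the fewest IDR summits per gene. dpr20 had the highest, at chr3L:857605-858020, 565 bp upstream of the start, with signal 416.0 and rank 2125, and ranks 2760 (187.5) and 1724 (226.8) in the replicates. It is the member summit closest to the start of its own gene. dpr3 had a peak in intron 2 with signal 223.4 and rank 4435 (replicate ranks 6216 and 4150). dpr5 had a peak 9541 bp upstream with signal 196.0 and rank 5082 (5447 and 5450). dpr1, the family's founding gene, named for its role in the taste-driven proboscis response to salt, had a peak 1894 bp upstream of rank 5323 (5967 and 4631). dpr6 had a peak in intron 6, 135924 bp from the start, of rank 5638 (6217 and 5265). The other 16 dpr genes had none.

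A list of 14 receptor and ligand pairs known to bind each other was used, which is not a full list of known pairs. Of the DIP genes it holds only DIP-alpha, DIP-gamma and DIP-delta, so the counts depend on the pairs listed. Both genes had an IDR summit by either tie in 2 of the 14 pairs, DIP-alpha with dpr6 and side-IV with beat-IIa. In 10 pairs 1 gene had a summit and the other did not, and in 2 pairs, side-VI with beat-Va and with beat-Vb, neither did. The pairs share genes, so they are not independent of each other. By either tie, 33.3% of all members and 27.5% of all coding genes had an IDR summit. The pair counts were not tested against these shares, so no matching or mismatching of partners can be read from them. side had 4 IDR summits and its receptor gene beat-Ia 0, where the highest pooled peak was of signal 61.3 and rank 18774. side-IV had 5 and beat-IIb 0, with a highest pooled rank of 7686. DIP-gamma had 2 and its partner genes dpr11, dpr15, dpr16 and dpr17 had 0, with 8, 3, 0 and 3 pooled peaks. DIP-alpha had 3 and dpr10 0, where 10 pooled peaks reached at best rank 10562, and DIP-delta had 1 and dpr12 0, with 4 pooled peaks of best rank 23863. In the other direction, side-II had 0 IDR summits and 16 pooled peaks (best rank 7558) while beat-VI had 1, and side-VI had 0 (best pooled rank 7130) while beat-Vc had 1 by its body.

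The pooled list reaches much weaker peaks, and there most members were present. A pooled summit was nearest to 43 of 54 members (79.6%), against 53.7% of all coding genes and 82.1% of coding genes in the same territory classes. By family the counts were 16 of 21 dpr, 7 of 11 DIP, 13 of 14 beat and 7 of 8 side genes. By either tie 46 members (85.2%) had 352 pooled summits, against 55.6% of all coding genes, a comparison that does not account for length. Among the members, 28 had a pooled summit but no IDR summit. By either tie an IDR summit was found at 33.3% of members and 27.5% of all coding genes. The highest counts without an IDR summit were 22 at side-III and 16 at side-II. The 8 members with no pooled summit by either tie were dpr7, dpr16, dpr18, dpr21, DIP-iota, DIP-lambda, beat-IV and side-VII. In 5 of these, dpr7, dpr18, dpr21, DIP-lambda and side-VII, neither replicate had a summit.

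Of the 209 pooled summits nearest to a member, 23 (11.0%) were in the IDR list, against 21.7% of all pooled summits and 17.3% on the comparison list. For dpr the count was 3 of 57 (5.26%), for DIP 5 of 18 (27.8%), for beat 5 of 66 (7.58%) and for side 10 of 68 (14.7%). Pooled density was 9.51 per 100 kb, and 14.8 without DIP-lambda and dpr21, against 22.2 for all coding genes and 29.1 for the comparison list. Density at the members was below that of all coding genes in the pooled list too, by a margin that depends on those 2 genes, while the share of genes reached was close to that of genes with a like territory.

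In each replicate taken alone, the strongest 6496 peaks reached the same number of members. In replicate 1 a summit was nearest to 13 members (24.1%), against 25.1% of all coding genes, and in replicate 2 to 13, against 26.4%. 11 members were reached in both replicates and in the IDR list: dpr1, dpr5, dpr20, DIP-delta, DIP-eta, DIP-gamma, beat-IIIc, beat-VI, side, side-IV and side-V. Because the IDR list is made from both replicates, its overlap with them is no separate evidence. No share of all coding genes reached in all of these lists is given here to set beside that count. DIP-alpha and dpr19 were reached in replicate 1 only, and beat-IIa and dpr2 in replicate 2 only. Density was 1.0 per 100 kb in replicate 1 and 1.09 in replicate 2, so the 2 replicates differ little in how much they place at the 4 families. The beat value was the least even, at 0.713 and 1.19.

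All 39 IDR peaks at the members overlapped a peak in each replicate, as 99.5% of all IDR peaks did. The IDR list is made from both replicates, so this overlap is no separate evidence of their agreement. Peaks that overlapped one of the strongest 6496 in both replicates numbered 32 (82.1%), against 82.3% of all IDR peaks. The replicate 1 rank was the higher one in 16 and the replicate 2 rank in 23, and the ranks were within 2-fold of each other in 36. Over the full lists, 155 of 339 replicate 1 peaks at the members (45.7%) had a replicate 2 summit within 100 bp, against 51.5% of all peaks. Across these pairs Spearman's rho of the signals was 0.768, and Pearson's r of log2 signals was 0.879, against 0.822 and 0.895 over all 15459 pairs. These are descriptions across peaks, which share the libraries and the control and are not independent. In both measures of overlap the members' IDR peaks had shares close to those of the list.

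**Figure D4:**
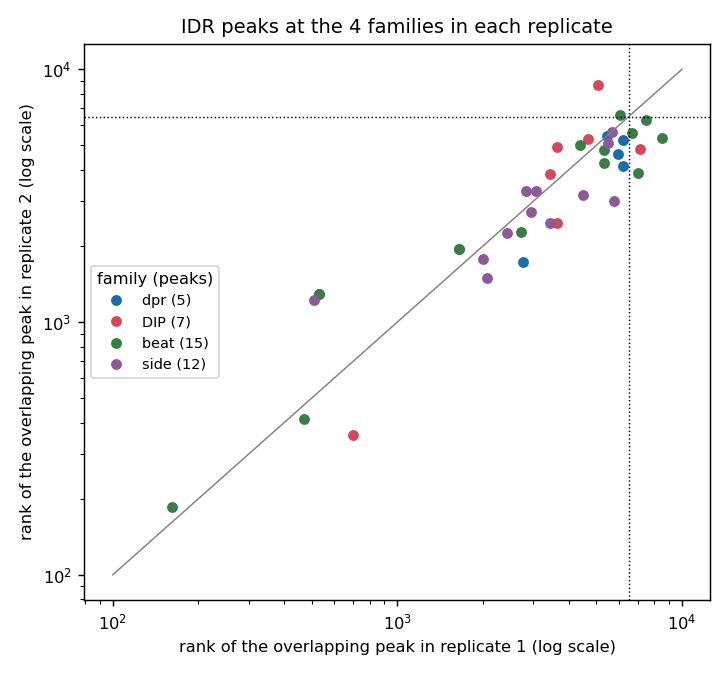
Rank of the overlapping replicate 1 peak (horizontal axis, log scale) against that of the replicate 2 peak (vertical axis, log scale) for the 39 IDR peaks at the 4 families, where rank 1 is the highest signal. The diagonal marks equal ranks and dotted lines mark rank 6496, and beat-Ib peaks that overlap the same replicate peaks coincide. All but 3 of the 39 points lie within 2-fold of the diagonal.

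The IDR peaks at the members lay farther from coding starts than the list as a whole. None of the 39 IDR summits lay within 500 bp of a coding start, against 2146 of 6496 (33.0%) over the whole list. Counted by gene, 0 of 54 members had an IDR summit within 500 bp of a start of their own, against 14.1% of all coding genes. The median distance to the nearest coding start was 7571 bp, against 1586.5 bp, and 26 of 39 (66.7%) lay more than 5 kb away, against 27.8%. The members are also longer than most genes, and the part of length in these distances was not tested. 28 summits (71.8%) were in introns, 9 between genes and 2 in non-coding exons, and 0 in coding exons or untranslated regions. Over the whole list 54.0% were in introns. The body tie favours introns by its construction. By the nearest-start tie alone 13 of 23 summits (56.5%) were intronic, close to the list. Of the 29 summits inside a member, 5 lay in intron 1 of the longest transcript, 19 in intron 2 and 5 further on. Those in intron 2 include 6 at beat-Ib and 4 at beat-IIIc. Neither intron lengths nor the same shares over the whole list are given here, so no preference for an intron can be read.

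When non-coding genes were counted as well, the nearest start of any kind was that of a non-coding RNA gene at 23 of 39 summits (59.0%), against 14.9% of all IDR summits. The 23 include all 6 beat-Ib peaks. The 2 sets are unlike in position, with median distances to a coding start of 7571 bp at the members and 1586.5 bp over the list. A summit far from coding starts more readily has a non-coding start nearest, and the part of position in this share was not tested. A start of any kind lay within 500 bp at 4 of the 39 (10.3%), against 35.9% of all IDR summits: 2 at beat-Ib, 1 at DIP-alpha and 1 at beat-IIa, in each case that of a long non-coding RNA. The 3 highest peaks at the members, a pair at beat-Ib and the DIP-alpha peak of rank 515, are among these 4.

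Weaker peaks did lie at starts of members. In the pooled list 17 members (31.5%) had a summit within 500 bp of a start of their own, against 33.5% of all coding genes. In the whole list of replicate 1 it was 15 (27.8%), against 33.2%, and in that of replicate 2 18 (33.3%), against 35.6%. These shares of genes are close to the background. Counted by peak the share was lower than the background. Of the 313 pooled peaks at the members below the IDR list, 26 (8.31%) lay within 500 bp of a coding start. Over all pooled peaks below the IDR list it was 17.5%. The median distance to a coding start was 8954 bp, against 3332 bp, and the part of gene length in this was not tested. The 10 members (18.5%) found in all 3 lists were dpr1, dpr2, dpr4, dpr6, beat-IIIc, beat-VI, side, side-II, side-IV and side-V. The same share over all coding genes is not given here, so this recurrence cannot be set against a background. At beat-IIIc the pooled summit lay 18 bp past the start at rank 7089, with ranks 11972 and 6327 in the replicates. At dpr2 it lay 477 bp upstream at rank 7203. Those of side-IV (68 bp upstream), dpr6 (219 bp upstream) and side-V (11 bp upstream) had ranks 10656, 10893 and 11380. At dpr19, replicate 1 had a summit 163 bp upstream of the start at rank 3144 with signal 169.0, and the pooled list one 30 bp upstream at rank 8715, but replicate 2 had none. All of these start peaks fell outside the IDR list.

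The IDR peaks at the members were also lower in the list. Their median rank was 4268, against 3248.5 over the list, and by family it was 5082 for dpr, 4295 for DIP, 4760 for beat and 3027 for side. Ranks 1 to 1000 held 5 of the 39 (12.8%), against 15.4% of the list, 3 at beat-Ib and 1 each at side-IV and DIP-alpha. The median of the side peaks is near the middle of the list and those of the other families are below it.

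In base composition the member peaks were like the rest. Median GC content of the 101 bases around the summit was 28.7% at the 39 peaks and 29.7% over the IDR list, with 43.6% in both for windows 500 bp away. The summit was lower in GC than its flank at 36 of 39 (92.3%) and at 83.0% of all. By family the median was 31.7% for dpr, 34.7% for DIP, 27.7% for beat and 29.7% for side. The 313 pooled peaks at the members that did not reach the IDR list had a median of 38.6%, and 51.8% of them were below their flank. At the same genes, GC was thus lower at the IDR summits than at the weaker summits. The same held over the whole lists, so this gap is not particular to the members. The median was 29.7% for all IDR peaks and 41.6% for all weaker pooled peaks, of which 50.6% were below their flank.

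**Figure D5:**
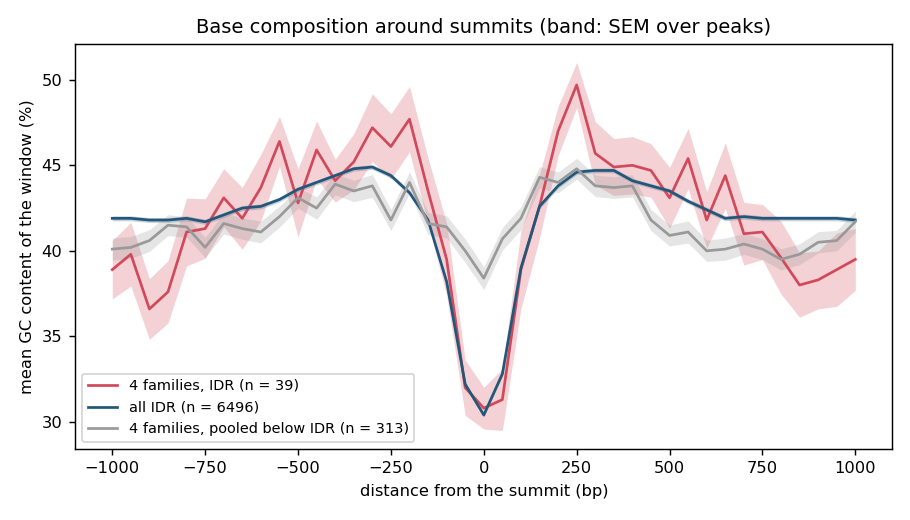
Mean GC content of 51-bp windows (vertical axis, percent) by distance from the summit in bp (horizontal axis), with a band of 1 standard error over peaks, for the 39 IDR peaks at the 4 families, all 6496 IDR peaks and the 313 weaker pooled peaks at the 4 families. At the summit the 3 means are 30.8%, 30.4% and 38.4%.

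E-boxes were no more frequent at the member summits than beside them. CANNTG was found in 11 of 39 summit windows (28.2%) and in 48.7% of the flanking windows, against 32.3% and 41.7% over the whole list. The flank is 1 window, 500 bp to 1 side of the summit. Its median GC was 43.6%, against 28.7% at the member summits. The part of base composition in the difference between summit and flank was not tested. For the 23 summits tied by the nearest start it was 39.1% at the summit and 47.8% in the flank, so the summit share lies above or below the list's depending on the tie. By family the counts were 3 of 5 dpr, 3 of 7 DIP, 1 of 15 beat and 4 of 12 side windows. CAGCTG was found in 1 summit window (2.56%) and 12.8% of flanks, against 2.28% and 4.59% over the list. CATATG was found in 2 (5.13%, flank 2.56%), against 4.0% (flank 3.83%). GAGAG, a motif of GAGA factor, was found on either strand in 4 (10.3%, flank 20.5%), against 8.1% (flank 14.4%). CACTG on either strand, which was added after the sequences were seen, was found in 11 (28.2%, flank 23.1%), against 16.0% of all (flank 17.1%). A match is a match of letters only. The beat windows, which have the lowest median GC, held the fewest E-boxes per window, and the part of base composition in that count was not tested.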

How the data were processed

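ChIP-seq of Oli-eGFP embryos was available as peak lists on dm6, per the file notes. The signal of a peak and its -log10 q-value are the values the authors deposited, and the q-values were not used. Replicate and pooled lists were made with the same control, per the file notes. Depth is unknown, and the peak caller and aligner are named in none of the labels or file notes. The age entry in the labels is garbled, so the source description was used.

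Summits were tied to coding genes of Ensembl release 115 (BDGP6 annotation 54) on 6 chromosomes, with a shared start credited to every gene that has it. Genome release 6 is the dm6 assembly. The offset puts 3 IDR summits past the end of their peak. Members and lists were chosen with earlier results of these data known. The rule for full values took, per family, the 3 genes with the highest IDR signal, the 6 members with the most peaks and the binding pairs; start peaks below the IDR list and single genes left out were chosen after their values were seen. Lists are described by counts, without a test. Assignment was tested on simulated data, with Python 3.11.15, numpy 2.4.6, pandas 2.3.3, scipy 1.17.1 and matplotlib 3.10.9.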

Additional observations from a re-analysis of the deposited data

How the results depend on the processing

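Of 69 alternative values, 51 stayed within the replicate spread or the 95% interval of the main value and 18 moved, in 9 results. The intervals of single families are wide, so a value that stayed inside is weak evidence of stability. The DIP share rose from 36.4% to 63.6% in the pooled list and still counts as unmoved, within 10.9 to 69.2%. With only the 3248 strongest IDR peaks, a summit was nearest to 7.41% of the 4 families, 9.09% of DIP and 0.0% of beat genes. Density fell to 0.364 per 100 kb. Over all coding genes the shorter list gave 15.9% and 2.4 per 100 kb, down from 25.8% and 4.8. Coding genes of the same territory classes as the 4 families gave 30.4% in it. With the whole pooled list the shares were 79.6% for the 4 families, 76.2% for dpr, 92.9% for beat and 87.5% for side, and the density was 9.51. Over all coding genes the pooled list gave 53.7% and 22.2 per 100 kb. Density was 1.15 by gene body, against 4.03 over all coding genes. It was 0.593 when starts of all gene types competed and 1.52 within 10 kb of a start. Both settings also change the territories, and the density over all coding genes under them is not given here. Neither value can therefore be set against a background. The density of the 4 families was 1.63 without DIP-lambda and dpr21, an alternative chosen after seeing the data. Median GC at the nearest summits, 30.7%, was 33.8% over 100 bp either side, 27.7% by gene body, 38.6% in the pooled list and 30.7 to 32.7% when a replicate was left out. Overlap with the strongest peaks of both replicates was 78.3% for the 23 nearest summits. No paired analysis was possible because there is 1 group. Depth is unknown, so a gene without a summit cannot be called unoccupied. The shares rest on 8 to 21 genes per family.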
